A study of Mus musculus with 6 samples.

Results

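Collagen genes were read here in 6 RNA sequencing libraries of EGFP-positive cells sorted from mouse dorsal root ganglia at 18.5 days post coitum. The members were all genes whose symbol consists of Col, a type number, a and a chain number, which gave 44 of the 41388 genes listed. They fall into 11 fibrillar, 8 basement membrane, 9 fibril-associated, 6 beaded filament, 3 short-chain network, 4 transmembrane and 3 anchoring or other collagens.

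Collagens are secreted or membrane proteins in which 3 chains wind into a triple helix, with glycine recurring at regular steps along the helix. Fibrillar collagens form the fibres of connective tissue, and type IV forms the network of basement membranes, such as those that surround Schwann cells, satellite glia and vessels. The chains of a trimer are often products of different genes, and in nerve they come from fibroblasts, glia and vessel cells more than from neurons.

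The embryos carried RetFloxedEGFP, in which EGFP is expressed from Ret after recombination, together with Cre at the Scn10a (Nav1.8) locus, on the C57BL/6 strain. By their titles all 6 libraries share this genotype, so no group analysed here differs by an allele. Pool size was 40 ganglia of 2 embryos for male A and for every female library, 60 ganglia of 3 embryos for male B and 20 ganglia of 1 embryo for male C. The ganglia were labelled T11-S1 in 5 libraries. Male C was deposited later, with the genotype label RetFloxedEGFP alone and no segment levels in its tissue label. The reporter marks cells with a history of Nav1.8 Cre and Ret expression, so the labelled population is a class of sensory neuron.

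Read totals ran from 15693013 to 24033601 per library, and collagens took between 0.0374% and 0.0882% of them. The nociceptor markers were abundant, with Scn10a at 97.5, 116 and 130.4 RPKM in females A, B and C and 99.9, 134 and 134 RPKM in males A, B and C and Ret between 23.4 and 33.3 RPKM. RPKM is reads scaled to gene length as deposited and to library size, here with library totals scaled by TMM factors. Genes of other cells were also present: Apoe, of satellite glia, was at 119.8, 135 and 263 RPKM in females A, B and C and 108, 268 and 155 RPKM in males A, B and C. In bulk RNA, fewer cells of a type and less RNA per cell cannot be told apart.

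The coding stretches that make these genes collagens are shown first, for a fibril chain, a network chain and the highest member. Each is the first 30 codons of a run of glycine repeats in the longest coding transcript of GENCODE M21, with the glycine codons in capitals.
Col1a1, codons 168 to 197: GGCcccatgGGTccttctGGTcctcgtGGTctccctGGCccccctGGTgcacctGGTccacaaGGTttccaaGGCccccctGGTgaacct
Col4a1, codons 43 to 72: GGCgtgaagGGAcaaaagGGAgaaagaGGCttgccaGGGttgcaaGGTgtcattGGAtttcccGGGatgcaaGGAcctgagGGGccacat
Col28a1, codons 245 to 274: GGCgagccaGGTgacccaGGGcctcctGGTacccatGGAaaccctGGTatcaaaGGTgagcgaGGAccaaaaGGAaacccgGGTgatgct
Each stretch holds 10 glycine codons in 30, with 11, 4 and 7 proline codons in the order shown. The longest uninterrupted run of repeats was 338 in Col1a1, 339 in Col1a2 and 344 in Col3a1. It was 40 in Col4a1, which has 22 separate runs of 4 or more repeats, and 28 in Col28a1, which has 17 such runs. The predicted coding sequences of Col4a1 and Col28a1 thus hold many short runs, and those of the type I and III chains hold 1 long run and 1 short one.

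Of the 44 members, 11 reached a mean of 1 RPKM, 22 lay between 0.1 and 1 RPKM and 11 lay below 0.1 RPKM. The 7 highest members held 80.4% of the summed collagen RPKM. The median member was at 0.328 RPKM, and the median over the 15026 genes with enough reads to be tested was 3.93 RPKM. Reads were found in every library for 36 members. The plot of levels by class shows the 33 members that passed the filter on low counts.

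**Figure D1:**
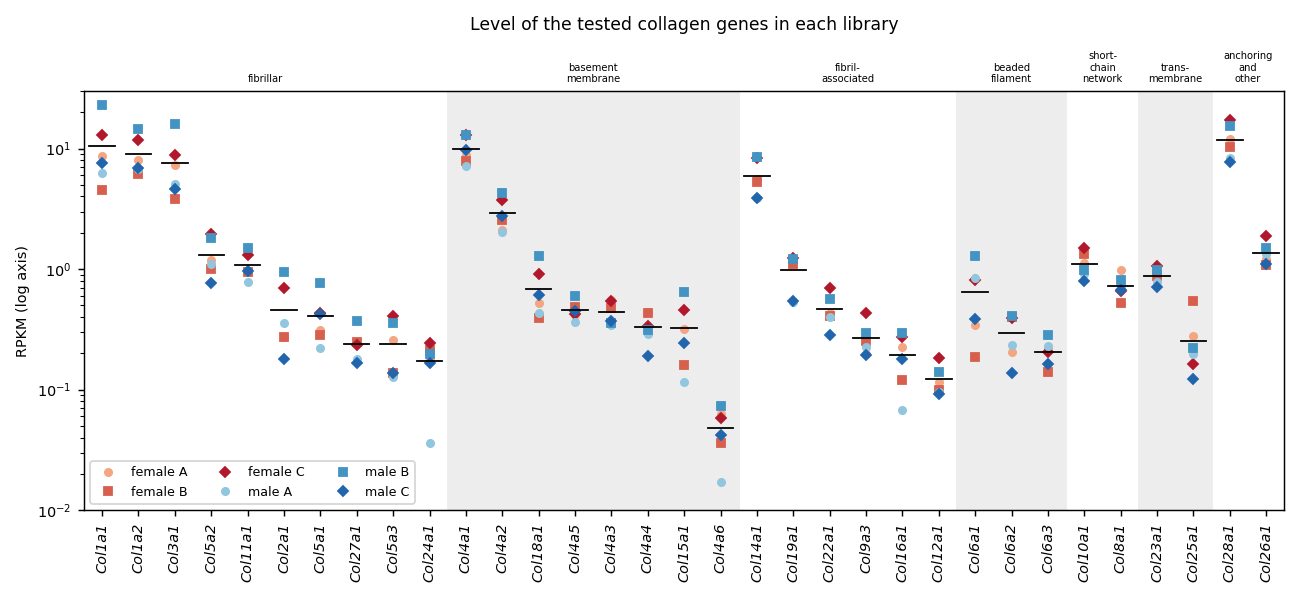
RPKM on a log axis of each of the 33 tested collagen genes, ordered by class; coloured points are the 6 libraries and black bars their means. Col28a1, Col1a1, Col4a1, Col1a2 and Col3a1 lie highest, and female C and male B are the upper points in most members.

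Among fibrillar collagens, the type I and III chains were the highest. Col1a1 (chr11:94936224-94953042, build GRCm38.p2), the alpha1 chain of type I collagen, was at 8.70, 4.56 and 13.0 RPKM in females A, B and C and 6.23, 22.9 and 7.53 RPKM in males A, B and C. Its mean was 10.5 ± 6.71 RPKM (SD, n = 6). Male B was the highest library and female B the lowest, and the sexes overlapped.

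Col1a2 (chr6:4504814-4541543), the second chain of type I collagen, was at 7.96, 6.16 and 11.8 RPKM in females A, B and C and 6.73, 14.4 and 6.86 RPKM in males A, B and C. Col3a1 (chr1:45311538-45349706), whose product forms fibrils with type I in soft tissue, was at 7.28, 3.82 and 8.76 RPKM in females A, B and C and 5.10, 16.1 and 4.64 RPKM in males A, B and C. Both were highest in male B and lowest in female B, as Col1a1 was, and the sexes overlapped. Their means were 8.98 ± 3.34 and 7.61 ± 4.53 RPKM (SD, n = 6).

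Col5a2, a chain of the type V collagen that sits inside type I fibrils, was at 1.19, 1.00 and 1.95 RPKM in females A, B and C and 1.10, 1.81 and 0.764 RPKM in males A, B and C. Col11a1, its type XI relative of cartilage and early fibrils, was at 0.971, 0.949 and 1.31 RPKM in females A, B and C and 0.780, 1.51 and 0.968 RPKM in males A, B and C. Col2a1, the main cartilage collagen, was at 0.273, 0.273 and 0.699 RPKM in females A, B and C and 0.358, 0.952 and 0.179 RPKM in males A, B and C. For Col2a1 female C and male B stood above the other 4 libraries, and male C was the lowest. The other fibrillar members tested, Col5a1, Col5a3, Col24a1 and Col27a1, had means between 0.173 and 0.405 RPKM. Col11a2 was the lowest fibrillar member, with 16 reads over all 6 libraries.

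Basement membrane collagens were led by the type IV pair. Col4a1 (chr8:11198423-11312826) was at 8.87, 7.83 and 12.8 RPKM in females A, B and C and 7.10, 12.8 and 9.71 RPKM in males A, B and C, and its partner Col4a2 (chr8:11312805-11449287) was at 2.12, 2.58 and 3.71 RPKM in females A, B and C and 2.03, 4.24 and 2.75 RPKM in males A, B and C. These genes lie head to head on opposite strands, and 22 exon bases of the deposited models overlap. Both were highest in female C or male B and lowest in male A. The means were 9.86 ± 2.47 and 2.90 ± 0.888 RPKM (SD, n = 6).

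Col4a3, a chain of the type IV network best known from the kidney glomerulus, was at 0.550, 0.472 and 0.539 RPKM in females A, B and C and 0.344, 0.360 and 0.371 RPKM in males A, B and C. All 3 female libraries were above the 3 male libraries, but how many of all tested genes are separated this way was not counted. Col15a1, a basement membrane proteoglycan collagen of vessels and muscle, was at 0.317, 0.161 and 0.456 RPKM in females A, B and C and 0.115, 0.650 and 0.244 RPKM in males A, B and C. Its highest library was male B and its lowest male A. Col18a1, the endostatin precursor, and Col4a4 and Col4a5 had means of 0.689 ± 0.346, 0.333 ± 0.0937 and 0.455 ± 0.0826 RPKM. For Col4a4 too, the lowest female value, 0.336 RPKM in female C, was above the highest male value, 0.311 RPKM in male B. Col4a6 was the lowest of the class, with 48 reads in all.

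The highest member of all was Col28a1 (chr6:7997808-8192617), which encodes a von Willebrand factor A domain collagen known from Schwann cell basement membranes of peripheral nerve. It was at 12.0, 10.4 and 17.2 RPKM in females A, B and C and 8.40, 15.4 and 7.70 RPKM in males A, B and C, a mean of 11.8 ± 3.82 (SD, n = 6). Female C and male B were the highest libraries and male C the lowest. Col26a1, first described in testis and ovary, was at 1.22, 1.08 and 1.88 RPKM in females A, B and C and 1.33, 1.51 and 1.09 RPKM in males A, B and C. Col7a1, the anchoring fibril collagen of skin, had 4 reads in all.

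Col14a1 (chr15:55307750-55520803), a fibril-associated collagen with interrupted helices, was at 5.60, 5.31 and 8.33 RPKM in females A, B and C and 3.91, 8.48 and 3.86 RPKM in males A, B and C. Col19a1, another member of that class, was at 1.23, 1.11 and 1.22 RPKM in females A, B and C and 0.530, 1.21 and 0.547 RPKM in males A, B and C. Male A and male C were the lowest libraries for both genes. Col22a1, Col9a3, Col16a1 and Col12a1 had means between 0.121 and 0.464 RPKM. Col9a1, Col9a2 and Col20a1 had 46, 45 and 3 reads and did not pass the filter.

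Col10a1, the network collagen of hypertrophic cartilage, was at 1.13, 1.35 and 1.49 RPKM in females A, B and C and 0.905, 0.973 and 0.795 RPKM in males A, B and C. All 3 female libraries were above the 3 male libraries, a separation whose share over all tested genes was not counted. Its gene lies inside Nt5dc1, on the opposite strand, and no source here says whether reads were counted by strand. Col8a1 had a mean of 0.724 ± 0.155 RPKM, and Col8a2 had 21 reads. Col23a1, a transmembrane collagen, was at 0.856, 0.877 and 1.07 RPKM in females A, B and C and 0.780, 0.982 and 0.703 RPKM in males A, B and C, a narrow range. Col25a1, a transmembrane collagen made by neurons, had a mean of 0.255 ± 0.151 RPKM with its highest value in female B. Col13a1 and Col17a1 had 4 and 1 reads.

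Among beaded filament collagens, Col6a1, a chain of the type VI filaments, was at 0.345, 0.187 and 0.814 RPKM in females A, B and C and 0.844, 1.28 and 0.384 RPKM in males A, B and C. Male B was the highest and female B the lowest library. Col6a2 and Col6a3 had means of 0.296 ± 0.118 and 0.207 ± 0.0506 RPKM. Col6a4, Col6a5 and Col6a6 had 34, 30 and 38 reads. In a library where a gene had no read, 3 reads would correspond to between 0.125 and 0.191 CPM, and counting error alone is covered by that limit.

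The order of the highest members depended on the gene length used. The deposited length of Col1a2 is 12136 bases and its longest coding transcript is 5348 bases. With the transcript lengths, Col1a2 had a mean of 20.4 RPKM and ranked first, Col28a1 had 13.7 and Col3a1 13.4. Col26a1 had 2.84 in place of 1.35 RPKM, and Col6a2 had 0.531 in place of 0.296 RPKM. The number of members at 1 RPKM or more is therefore a count on the deposited lengths.

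**Figure D2:**
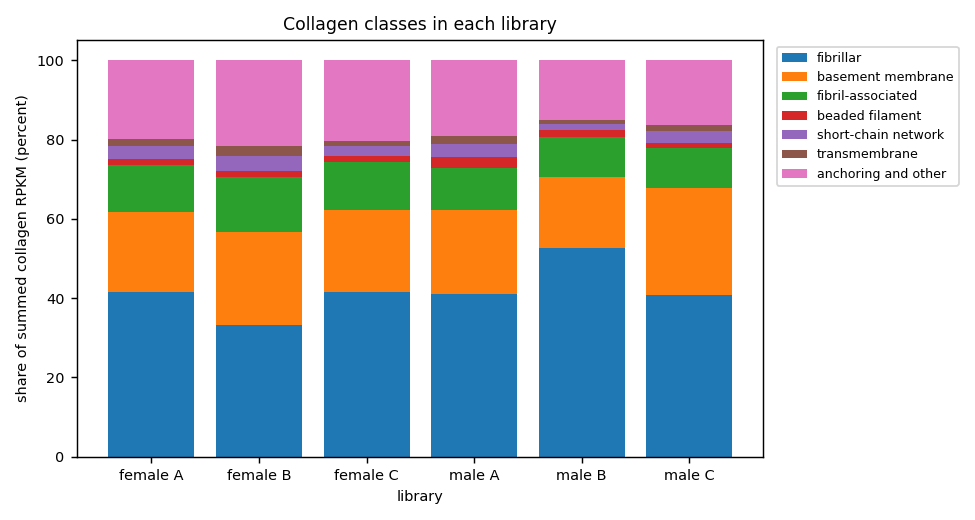
Share of the summed collagen RPKM, in percent, held by each of the 7 classes in each library; each bar sums to 100.0%. The fibrillar part is tallest in male B and shortest in female B.

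Fibrillar collagens held 41.8% ± 6.17 (SD, n = 6) of the summed collagen RPKM. By library their share was 41.5, 33.3 and 41.5% in females A, B and C and 41.1, 52.6 and 40.8% in males A, B and C. Basement membrane collagens held 21.7% ± 3.05 and the anchoring and other class, nearly all Col28a1 and Col26a1, 18.8% ± 2.53. The fibril-associated class held 11.5% ± 1.52. The remaining 3 classes each held under 3% on average. Without Col28a1 the fibrillar share was 50.1%, and with transcript lengths it was 50.7%.

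**Figure D3:**
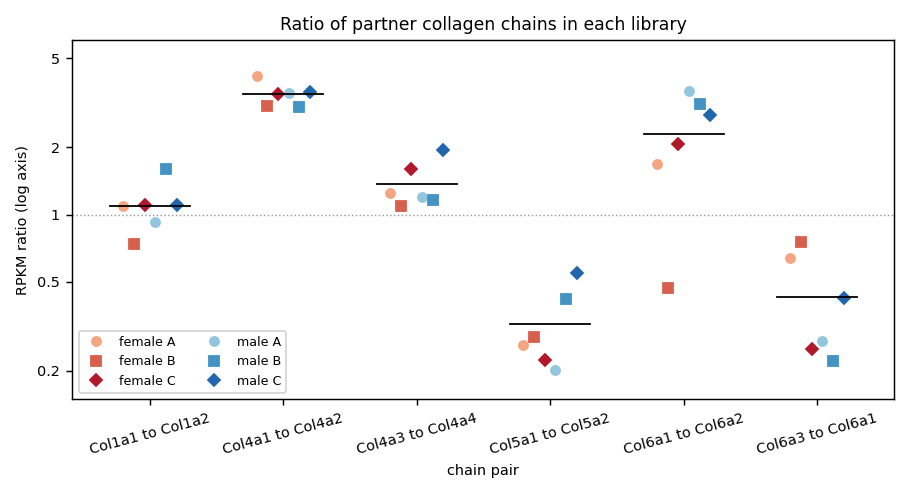
RPKM ratio, on a log axis, for the 6 chain pairs with at least 10 reads of both genes in every library; points are libraries and bars their means. The Col4a1 to Col4a2 points lie close together and the Col6a1 to Col6a2 points are widely spread.

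Chains of a trimer were compared as ratios. Col4a1 to Col4a2 was 4.18, 3.04 and 3.47 in females A, B and C and 3.50, 3.03 and 3.52 in males A, B and C, a mean of 3.46 ± 0.421 (SD, n = 6). Col4a1 exceeded Col4a2 in RPKM in each of the 6 libraries. Col1a1 to Col1a2 was 1.09, 0.741 and 1.10 in females A, B and C and 0.925, 1.59 and 1.10 in males A, B and C, a mean of 1.09 ± 0.283. With transcript lengths that mean was 0.532, so the side of 1 on which the mean fell depended on the length used. Col6a1 to Col6a2 was 1.69, 0.469 and 2.07 in females A, B and C and 3.58, 3.11 and 2.80 in males A, B and C, a mean of 2.29 that became 1.36 with transcript lengths. The remaining ratios, Col4a3 to Col4a4, Col5a1 to Col5a2 and Col6a3 to Col6a1, had means of 1.38, 0.323 and 0.426.

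The first comparison set the 3 female against the 3 male libraries. No collagen was called by edgeR at an adjusted p below 0.05, and none reached an unadjusted p below 0.05 in edgeR, DESeq2 or limma-voom. In edgeR 3 of 35 reached it without female C, 3 of 35 without male B and 2 of 44 without the filter, and none was called. With embryo number as a covariate 1 of 33 reached it, and with an offset for GC content 1 of 33. Of the 15026 genes tested in the main run, 166 had an unadjusted p below 0.05 in edgeR. The shares of all genes in the other runs are not given here. Over all 15026 genes tested, 0.0333% were called, 0.00666% higher and 0.0266% lower in females. The collagen with the smallest p was Col4a3, at a log2 fold change of 0.54 (SE 0.25, edgeR adjusted p = 1.0). Of 33 collagens 19 had a positive and 14 a negative log2 fold change, with a median of 0.17 beside -0.005 over all genes. Without male B the median was 0.51, with 32 of 35 positive. It was -0.08 without female C, -0.11 without male A and -0.02 without male C. Without female A it was 0.11 and without female B 0.21.

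The 3 type I and III chains had negative log2 fold changes of -0.48 (Col1a1), -0.11 (Col1a2) and -0.38 (Col3a1). All 6 fibril-associated members tested had positive values, between 0.17 and 0.63. Col25a1 had the highest value, 0.85 (SE 0.46), and Col6a1 the lowest, -0.90 (SE 0.56). None of these passed the test.

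**Figure D4:**
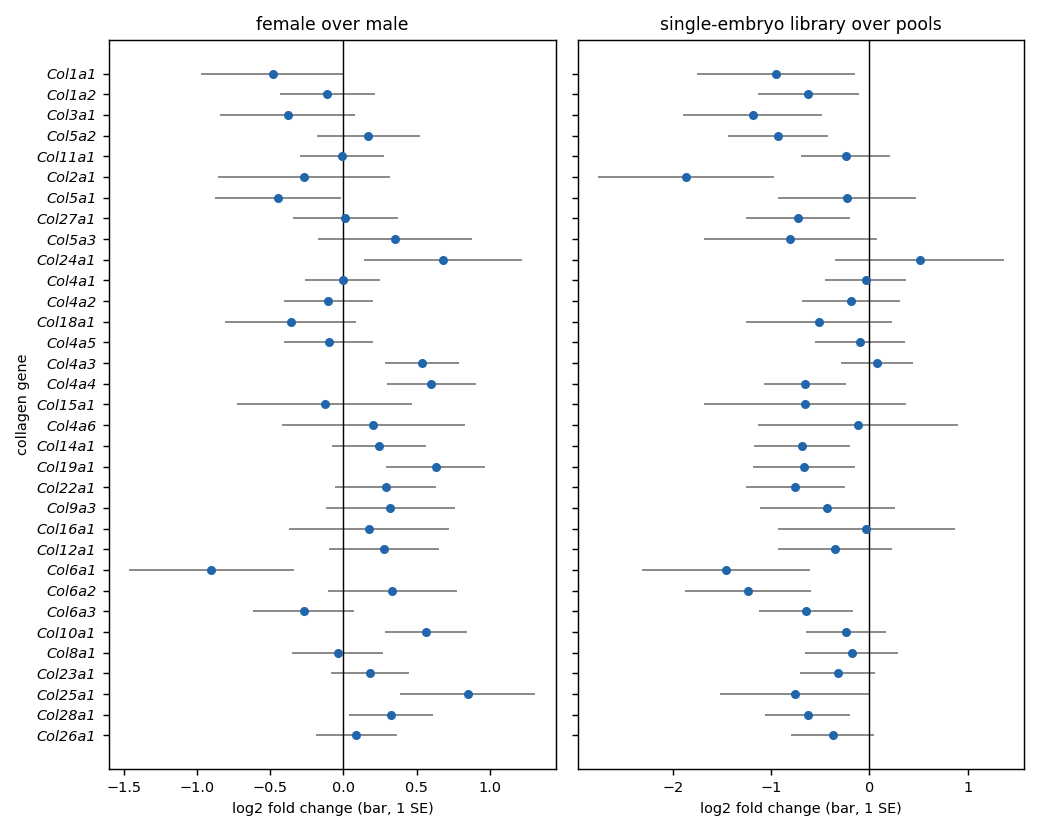
Log2 fold change with 1 standard error for each of the 33 tested collagens, in the female against male comparison and in the comparison of the single-embryo library with the pools. In the first, points lie on both sides of 0, and in the second 31 of 33 lie below 0.

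The second comparison set male C, from 1 embryo, against the 5 pooled libraries with a term for sex. Because of that term the fold changes are set by male C against the 2 male pools, and the female pools inform the spread alone. Col1a1, for example, was at -0.95, between -0.97 and -0.95 without 1 of the female libraries, -1.60 without male A and 0.27 without male B. The collagen calls were 0 in edgeR, beside 0% of all genes called in either direction, higher or lower. With no replicate of the single-embryo library, its spread was taken to equal that of the pools, and embryo number, deposit and library cannot be told apart. At an unadjusted p below 0.05 there were 0 collagens and 1137 genes in edgeR. DESeq2 called 0 collagens and 44 genes in all, with 1 collagen at an unadjusted p below 0.05, and limma-voom had 0 on both counts for collagens. Collagens with an unadjusted p below 0.05 in edgeR occurred without male A, female C, male B, the filter or the sex term. They also occurred with an offset for GC content. None was called in these runs, and the run with the letter as a replicate block is given in the last section. Such collagens were most numerous without male A, where the median collagen log2 fold change was -0.81. The shares of all genes at that p in these runs are not given here.

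In that comparison 31 of 33 collagens had negative log2 fold changes, with a median of -0.62 beside -0.03 over all genes. The smallest p was that of Col2a1, at -1.87 (SE 0.90, edgeR adjusted p = 0.687). Col3a1 was at -1.19 (SE 0.71), Col28a1 at -0.63 (SE 0.43) and Col4a1 at -0.04 (SE 0.41). Without male B, which leaves male A as the male pool, the median was -0.05, with 16 positive and 19 negative. With no sex term, which sets male C against all 5 pools, 32 of 33 were negative, with a median of -0.48. Marker lists in the same comparison went both ways. Negative were 8 of 8 endothelial genes (median -1.07), 8 of 10 fibroblast genes (-0.68) and 5 of 5 red blood cell genes (-4.07). Glial and Schwann cell genes were 7 of 11 negative (-0.15). Positive were 6 of 8 pericyte and smooth muscle genes (0.71) and 9 of 12 nociceptor genes (0.21). The summed red blood cell list was 1257 RPKM in male A, 165 in male B, 41.4 in male C and 49.3 in female A, also a pool. None of these genes was called, and their part in the collagen values was not tested.

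**Figure D5:**
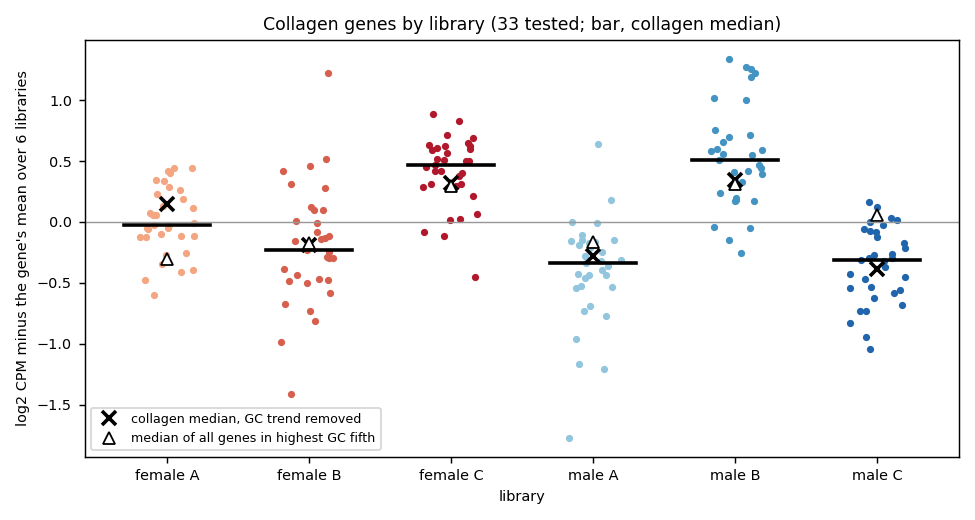
Log2 CPM of each of the 33 tested collagens minus its mean over the 6 libraries (points), with the collagen median (bar), the collagen median after removal of a GC trend (cross) and the median of all genes in the upper GC class, at least 55.3% GC (triangle). Female C and male B lie above 0 and male A and male C below.

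In each library but female A, more than 20 of the 33 collagens stood on the same side of their mean, and libraries of 1 sex differed. In female C 30 of 33 collagens were above their own mean and in male B 29 of 33. The counts were 15 in female A, 10 in female B, 3 in male A and 5 in male C. Over all genes tested, between 48.8% and 51.3% were above their mean in each library. The pattern was not particular to collagens. Of 13 tested laminin, nidogen and basement membrane proteoglycan genes, 12 were above their mean in female C and 11 in male B. In male A and in male C 2 of them were. Of 17 collagen modification genes, 13 were above in female C, 13 in male B, 4 in male A and 8 in male C. Of 9 fibril-binding genes the counts were 4, 8, 5 and 3 in the same order. The median collagen deviation was 0.47 in female C and 0.51 in male B, and between -0.34 and -0.02 in the others.

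Fibrillar collagens had the same pattern, with 10 of 10 tested members above their mean in both female C and male B and 0 of 10 in male A. Fibril-associated collagens were 6 of 6, 6 of 6 and 0 of 6 in the same libraries. Basement membrane collagens were 7 of 8, 6 of 8 and 0 of 8. The smaller classes followed less closely. Beaded filament collagens were 3 of 3, 3 of 3 and 2 of 3, and the anchoring and other class 2 of 2, 2 of 2 and 1 of 2. Transmembrane and short-chain network collagens were each 1 of 2, 1 of 2 and 0 of 2. The pattern is a description of single libraries, for which no test was made.

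GC content was read beside these counts. All 44 collagens, tested or not, had a median GC content of 54.5%, and the median over tested genes was 49.7%. Of the 33 tested collagens, 13 lay in the upper GC class of genes (GC content of at least 55.3%, the top 20% of tested genes). The median deviation of all genes in that class was -0.31, -0.17 and 0.30 in females A, B and C and -0.17, 0.31 and 0.06 in males A, B and C. It stood high where collagens did in female C and male B, but not low in male C, and it was lowest in female A. With the GC trend of each library removed, the collagens above their mean numbered 25, 12 and 27 of 33 in females A, B and C and 5, 27 and 4 in males A, B and C.

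Markers of other cells were read in the same libraries. Glial and Schwann cell markers were 7 of 11 above their mean in female C and in male B, with Sox10 at 3.62, 2.68 and 5.24 RPKM in females A, B and C and 2.63, 6.10 and 2.43 RPKM in males A, B and C. Its highest libraries were also male B and female C. The endothelial list of 12 genes summed to 3.41, 2.84 and 4.30 RPKM in females A, B and C. In males A, B and C it summed to 2.83, 4.71 and 2.03 RPKM. Its 1 gene at a mean of 1 RPKM, Egfl7, weighed most in these sums. Egfl7 was at 0.738, 0.811 and 1.73 RPKM in females A, B and C. In males A, B and C Egfl7 was at 0.816, 2.10 and 0.958 RPKM. Of 8 endothelial genes tested, 5, 6 and 7 were above their mean in females A, B and C. In males A, B and C 5, 6 and 0 were. The fibroblast and meninges list of 16 genes summed to 194, 170.4 and 168 RPKM in females A, B and C. In males A, B and C it summed to 185, 155 and 168 RPKM. In the fibroblast list 6 of 16 genes reached a mean of 1 RPKM: Dcn (133 RPKM), Fbln2 (18.7), Postn (11.4), Mfap5 (4.24), Lum (2.72) and Slc6a13 (1.39). Pdgfra, a defining fibroblast receptor, was between 0.162 and 0.481 RPKM, and Twist2 had 1 read. In the cartilage and bone list Cnmd, a cartilage membrane protein, was at 32.2 RPKM and Hapln1 at 0.89, while the cartilage proteoglycan Acan had 1 read and the bone genes Sp7 and Bglap 0 reads. The red blood cell sum over 7 genes was 49.3, 123 and 223 RPKM in females A, B and C and 1257, 165 and 41.4 RPKM in males A, B and C, highest in male A. Macrophage, pericyte, skeletal muscle and cartilage lists summed to means of 1.62, 18.7, 5.86 and 33.6 RPKM. The part of these cells in the collagen pattern was not tested.

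The biological coefficient of variation, edgeR's estimate of replicate spread, had a median of 0.31 over collagens and 0.24 over all genes tested. The highest were Col15a1 (0.50), Col2a1 (0.50) and Col6a1 (0.47). The lowest were Col4a3 (0.23), Col4a1 (0.23) and Col23a1 (0.25).

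Several genes that modify, fold or bind collagen had higher RPKM than any collagen. P4hb, a subunit of the prolyl hydroxylase, had a mean of 113 RPKM and Ppib, a prolyl isomerase, 109.6 RPKM. P4ha1, the catalytic partner of P4hb, was at 13.9 RPKM, while the lowest of the 17 modification genes, P3h2, was at 0.11. Serpinh1, the collagen chaperone, was at 44.8, 52.0 and 64.3 RPKM in females A, B and C and 47.6, 66.2 and 78.3 RPKM in males A, B and C. Sparc, which binds collagen, was at 157, 121 and 187 RPKM in females A, B and C and 121, 215 and 167 RPKM in males A, B and C, with its highest values in male B and female C. Sec23a, of the COPII coat, had a mean of 64.2 RPKM and was lowest in those libraries, at 49.1 RPKM in male B and 48.7 in female C. Of the 7 folding genes, 5 were above their mean in female C and 4 in male B. Tmem131, the lowest of the folding list, had a mean of 2.52 RPKM. Among receptors Itgb1, the integrin beta1 chain, had a mean of 89.1 RPKM, the adhesion receptors Adgrg1 and Adgrg6 had 18.9 and 4.26 RPKM, and Gp6 had 1 read.

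None of these lists had a called member in either comparison. That covered 17 of 17 tested modification genes, 7 of 7 folding genes, 9 of 13 processing and crosslinking genes, 9 of 12 receptors, 13 of 15 laminin and nidogen genes, 8 of 11 proteases and inhibitors and 9 of 9 fibril-binding genes. Adamts3, a procollagen protease, had a mean of 17.5 RPKM, Pcolce2 and Bmp1 3.26 and 1.07 RPKM, and Adamts14 had 15 reads. Nid1, which links laminin to type IV collagen, was at 18.8, 18.2 and 22.8 RPKM in females A, B and C and 15.4, 24.0 and 16.1 RPKM in males A, B and C and Lamb1 between 11.9 and 20.4 RPKM. The laminin chains Lamc1 and Lamc3, the third highest and the lowest of that list, had 9.16 and 0.03 RPKM. Timp2, a protease inhibitor, had a mean of 57.8 RPKM, Timp3 20.3 RPKM, the protease Ctsk 10.1 RPKM and Mmp13, a collagenase, 1 read. Of the fibril-binding genes, Dcn and Postn are given above, Bgn had 5.14 RPKM and Kera 39 reads.

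Promoters are printed for Col28a1, the highest member, and Col3a1, a fibrillar member among the 5 highest. RefSeq entries (GRCm38.p6) matched 35 of the 44 members, and each sequence below is the 250 bases before the gene's start, with motif letters in capitals.
Col3a1, chr1:45311288-45311537, plus strand: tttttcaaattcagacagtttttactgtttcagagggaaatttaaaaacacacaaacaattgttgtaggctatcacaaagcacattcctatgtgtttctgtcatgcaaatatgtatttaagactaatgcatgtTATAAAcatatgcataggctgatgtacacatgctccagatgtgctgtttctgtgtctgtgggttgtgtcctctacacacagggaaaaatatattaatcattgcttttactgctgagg
Col28a1, chr6:8192618-8192867, minus strand: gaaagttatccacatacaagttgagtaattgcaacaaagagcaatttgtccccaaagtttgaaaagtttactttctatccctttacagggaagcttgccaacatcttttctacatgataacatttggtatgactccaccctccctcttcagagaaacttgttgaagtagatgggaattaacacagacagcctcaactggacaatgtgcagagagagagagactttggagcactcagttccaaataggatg
The Col1a2 window, which held 1 CCAAT box and 2 GC boxes, starts at position 4505368, inside the deposited gene model, and its letters are not printed. Both strands of the 250 bases before each start were searched for the letters of 3 motifs. Any position in the window counted, so each match is an occurrence of the letters and its use as a promoter element was not tested. The CCAAT box, spelled by its name, was present in 34.3% of the 35 member promoters and 34.5% of 27025 promoters. The GC box, GGGCGG, was present in 60.0% and 32.9%. The TATA box, spelled as the capitals in Col3a1, was present in 5 of 35 member promoters (14.3%) and in 13.0% of all. None of the 3 sets of letters was found in the Col28a1 window.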

How the data were processed

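EGFP-positive cells were sorted from mouse dorsal root ganglia and RNA was sequenced in 6 libraries, 3 per sex, per the labels. Counting used featureCounts 1.4.5 (Subread) on GRCm38.p2, per the submitters' processing notes. The settings for aligner, annotation release, strand and multiple mapping were not given in the sources used here. For each gene the authors deposited read counts, CPM and RPKM. The deposited CPM and RPKM equalled values recomputed from counts for all 41388 genes, within a relative tolerance of 1e-06. Symbols came from GENCODE M21 by identifier.

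Library sizes were scaled by TMM in edgeR 4.0.16 (R 4.3.3), and genes passing filterByExpr (15026) were tested with edgeR's quasi-likelihood test and Benjamini-Hochberg adjustment at 0.05, two-sided, over all genes tested. DESeq2 1.42.0 and limma-voom (limma 3.58.1) were alternatives. Deviations used log2 CPM with a prior count of 2, and the GC trend a lowess span of 0.3. The code was tested on simulated data. Values in every library are given for the 12 members of highest RPKM, the highest and lowest of each class (reads in all for the lowest), the 3 of highest and lowest variation and those of smallest p; the 7 collagen-related lists are given by their 3 highest, their lowest and their called members, mostly as means. Marker lists are given as sums with members chosen after their values were seen. The collagen members and lists were chosen with earlier results of these data known. Libraries came from different embryos, mostly pools, so p-values measure the spread between these libraries. Deviations of same-letter libraries correlated at r = 0.28, -0.29 and -0.08 for A, B and C. The highest r, 0.55, was between female C and male B, of different letters. Libraries were not paired. Counting limits cover counting error only, because amplified reads carried no molecular identifiers.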

Additional observations from a re-analysis of the deposited data

How the results depend on the processing

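The count of called collagens stayed at 0 in the female against male comparison under each alternative run, and in the single-embryo comparison under each except the letter as a replicate block. With that block, 1 residual degree of freedom remained and 2 collagens, Col2a1 and Col6a1, were called lower among 412 genes, with Col2a1 at -3.10; the labels do not state that letters pair libraries. In the female against male comparison, the block left Col4a1 at 0.006, upper-quartile factors at 0.004, limma-voom at 0.005 and the embryo covariate at 0.007, and the GC offset, chosen after seeing the data, at 0.12, beside -0.005. Leaving out single libraries gave Col4a1 values from -0.25 without female C to 0.23 without male B, and Col1a1 from -0.89 to 0.35 without the same libraries. In the single-embryo comparison, limma-voom put Col4a1 at 0.021, and leaving out single libraries gave Col4a1 from -0.40 to 0.45 and Col1a1 from -1.60 to 0.27, lowest without male A and highest without male B. The 11 members at 1 RPKM became 33 at 0.1 RPKM and 32 at 1 CPM. The fibrillar share, 41.8%, was 52.0% of collagen reads, 50.1% without Col28a1 and 50.7% with the longest coding transcript length, and the Col1a1 to Col1a2 ratio was 0.532 with that length; these length alternatives were chosen after seeing the data. Without a filter on low counts 44 members were tested and none called, with 12 genes called by sex and 19 in the single-embryo comparison. The 11 members under the filter rest on at most 46 reads each over all libraries.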
